A study of Mus musculus with 11 samples.

Results

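Lysine acetyltransferases were followed in germinal center B cells of WT mice and of mice with floxed copies of Crebbp or Ep300. These genes encode a pair of related acetyltransferases, CREBBP (also called CBP) and EP300 (p300). The 10 genes described here, chosen by symbol from the 48593 genes of the table, were Crebbp, Ep300, Kat2a, Kat2b, Kat5, Kat6a, Kat6b, Kat7, Kat8 and the coactivator Ncoa3. All 10 were found and all 10 passed the filter on low values. Mice received sheep red blood cells, and on day 12 B220+, PNA+ and CD95+ cells were sorted from spleen for RNA sequencing. The 3 CBP-KO libraries are labelled Crebbpfl/fl;Ep300+/+, the 3 p300-KO libraries Crebbp+/+;Ep300fl/fl, and the 5 WT libraries carry intact copies of both genes. Every genotype, WT included, held 1 copy of Cg1cre, a Cre expressed from an immunoglobulin constant region locus once B cells are activated, so a floxed gene stays intact in any cell in which Cre has not acted. By the labels the WT mice were littermates out of Crebbp crosses, and no litter was given for the knockout mice, so cross and loss of Ep300 cannot be told apart. Age, sex and batch were not given.

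Lysine acetyltransferases move an acetyl group from acetyl-CoA to lysines of histones and other proteins, and acetylated histone tails mark active promoters and enhancers. CREBBP and EP300 are large coactivators that many transcription factors recruit, and they acetylate histone H3 at enhancers. The other members belong to the GCN5 family (KAT2A, KAT2B), the MYST family (KAT5, KAT6A, KAT6B, KAT7, KAT8) and the nuclear receptor coactivators (NCOA3), and most work inside large complexes. In B cell lymphomas of germinal center origin CREBBP is among the most often mutated genes. The comparison here asks how transcripts of the paralog and of the other acetyltransferases stood where 1 of the pair was floxed.

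Because 3 pairs of members are paralogs, the coding sequences were examined first for bases that would not tell the pair apart. Coding sequences of the annotated transcripts with most coding bases were 7236 bases in Ep300 and 7323 in Crebbp, identical at 71.5% of 6827 aligned positions. Their longest run of identical coding bases was 29, shown in capitals within 90 bases of each gene that span exons 18 and 19 of 31 (the coordinates include the intron between):
Ep300 (GRCm38, chr15:81631767-81632426, plus strand): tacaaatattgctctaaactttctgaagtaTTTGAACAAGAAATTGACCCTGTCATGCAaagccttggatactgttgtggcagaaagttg
Crebbp (GRCm38, chr16:4107514-4108122, minus strand): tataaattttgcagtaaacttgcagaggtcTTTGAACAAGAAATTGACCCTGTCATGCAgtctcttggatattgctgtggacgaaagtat
Of these 90 positions 72 held the same base in both genes. Kat2a and Kat2b were identical at 72.2% of 2392 aligned coding positions, with a longest shared run of 19 bases in exons 2 and 3 of 18 of either gene:
Kat2a (GRCm38, chr11:100711406-100711829, minus strand): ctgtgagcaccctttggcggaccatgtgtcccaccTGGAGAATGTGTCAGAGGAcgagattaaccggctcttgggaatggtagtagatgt
Kat2b (GRCm38, chr17:53610974-53624424, plus strand): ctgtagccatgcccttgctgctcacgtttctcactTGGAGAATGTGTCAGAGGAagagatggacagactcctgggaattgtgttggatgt
Kat6a and Kat6b were identical at 69.8% of 5318 aligned coding positions, with a longest shared run of 35 bases in exon 8 of 18 in Kat6a and exon 7 of 17 in Kat6b:
Kat6a (GRCm38, chr8:22911793-22911882, plus strand): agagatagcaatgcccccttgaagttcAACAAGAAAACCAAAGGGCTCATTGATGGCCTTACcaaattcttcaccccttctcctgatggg
Kat6b (GRCm38, chr14:21625026-21625115, plus strand): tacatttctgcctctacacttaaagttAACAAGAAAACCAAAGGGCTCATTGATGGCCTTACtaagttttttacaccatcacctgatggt
On GRCm38 the genes lie at chr16:4081328-4213997 (minus strand) for Crebbp, chr15:81585351-81652077 (plus strand) for Ep300, chr11:100704746-100712465 (minus strand) for Kat2a, chr17:53566861-53672720 (plus strand) for Kat2b, chr19:5603014-5610237 (minus strand) for Kat5, chr8:22859535-22943259 (plus strand) for Kat6a, chr14:21481434-21672478 (plus strand) for Kat6b, chr11:95274259-95310246 (minus strand) for Kat7, chr7:127912516-127925837 (plus strand) for Kat8, and chr2:165992636-166073242 (plus strand) for Ncoa3. No stretch of 50 bases was shared between the transcripts of any 2 of the 10 members. Kat2b shared 7.28% of its 50-base stretches with the pseudogene Kat2b-ps, which stood between 0 and 2.91 normalized read counts in the 11 libraries. Kat5 shared 426 of its 3509 exon bases with Rnaseh2c on the opposite strand, and the library kit does not mark strand. Rnaseh2c averaged 2751 ± 110 normalized read counts in CBP-KO, 2489 ± 255 in p300-KO and 2665 ± 123 in WT (SD, n = 3, 3 and 5), and its part in the Kat5 values was not tested.

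The libraries held between 53550726 and 132861266 reads counted to genes. Germinal center B cell markers were high in every library, with the sum of 10 markers between 721494 and 799528 normalized read counts in CBP-KO, between 789527 and 827535 in p300-KO and between 755264 and 834916 in WT. Of these 10 markers 2 fell in CBP-KO, and 2 rose and 1 fell in p300-KO. Over all tested genes 3.48% were higher and 4.88% lower in CBP-KO against WT by limma. In p300-KO against WT 5.84% were higher and 6.09% lower, and these shares apply to each marker list below. Of 6 T cell markers the sums were at most 37.4, 40.9 and 94.5 in CBP-KO, p300-KO and WT. Cd3e was at 0 in every library except p300-KO_289 (5.12) and WT_288 (3.51). Sums of 7 macrophage markers ran from 869 to 1173 in CBP-KO, from 1140 to 1548 in p300-KO and from 1240 to 2932 in WT with the highest in WT_46, and 2 of the 7 fell in CBP-KO. Sums of 5 plasma cell markers ran from 54524 to 64624 in CBP-KO, from 68245 to 81269 in p300-KO and from 52899 to 62832 in WT. Of the 5, 3 were higher in p300-KO (Jchain, Sdc1 and Xbp1) and 1 was lower in CBP-KO (Irf4). Sums of 5 erythroid markers ran from 214 to 498 in CBP-KO, from 89.6 to 284 in p300-KO and from 278 to 533 in WT, with 1 lower in p300-KO. The part of these transcripts in the values below was not tested. Library p300-KO_18 held both Xist (98751) and Y-linked transcripts (9852), and WT_46 stood farthest from the other libraries on the first principal component, so results whose call depends on either are also given without it. With both left out, Kat2b passed in CBP-KO against WT and Kat6b between the knockouts, Kat7 and Kat8 turned sign between the knockouts, and no other member changed its call or direction in any of the 3 comparisons.

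The floxed genes came first. Ep300 stood at 14829, 14796 and 13773 normalized read counts in p300-KO_18, p300-KO_287 and p300-KO_289, against 19310, 22238, 21460, 22498 and 20833 in WT_4, WT_7, WT_41, WT_46 and WT_288. All 3 p300-KO libraries were below every WT library, and the p300-KO mean was 68.0% of the WT mean. The fold change was -0.55 ± 0.06 (SE) on the log2(value + 1) scale, with a 95% confidence interval of -0.69 to -0.42 (limma adjusted p = 0.00015; exact two-sided permutation p = 0.0179, the smallest that 3 against 5 libraries allow). Without p300-KO_18 it was -0.57 (adjusted p = 0.00113) and without WT_46 it was -0.53 (adjusted p = 0.000261). In these bulk samples fewer deleted cells and a smaller loss of RNA per cell cannot be told apart.

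Crebbp itself overlapped WT in CBP-KO. It stood at 8595, 8606 and 7541 in CBP-KO_1, CBP-KO_53 and CBP-KO_55, against 8163, 9584, 9443, 9156 and 7984 in WT_4, WT_7, WT_41, WT_46 and WT_288, and the groups overlapped. The log2 fold change was -0.10, with an interval from -0.26 to 0.06 (limma adjusted p = 0.459; exact two-sided permutation p = 0.268). Leaving out 1 library at a time gave -0.14 to -0.04, nearest to 0 without CBP-KO_55. Reads were summed over all exons and the floxed exons are not given in the sources used here, so this value is no check of the CBP-KO labels.

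**Figure D1:**
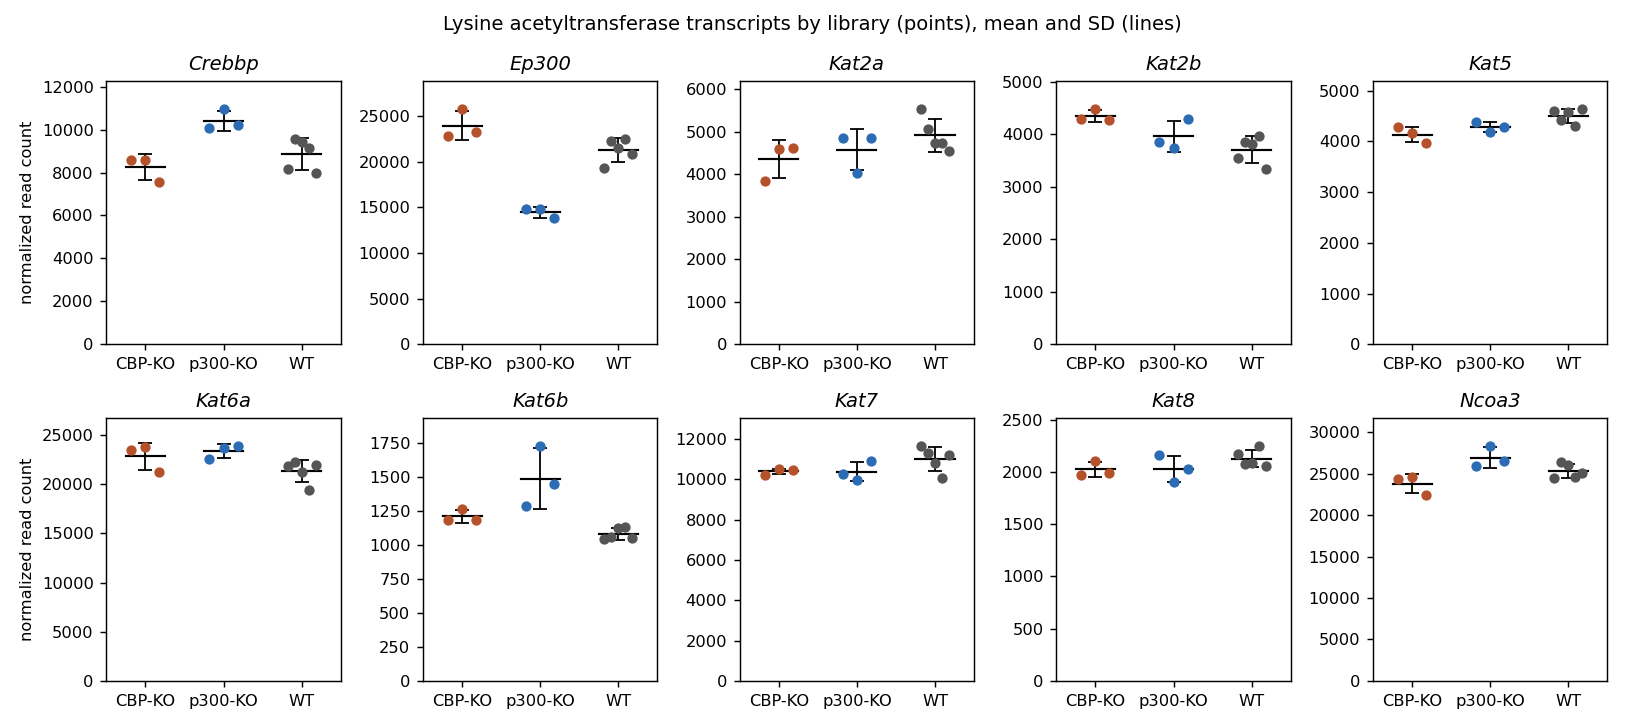
Normalized read counts (y axis, from 0) of each acetyltransferase in the 3 CBP-KO, 3 p300-KO and 5 WT libraries; each point is a library, the horizontal line the mean and the bar the SD. Ep300 in p300-KO lay between 13773 and 14829, below the lowest WT library at 19310, and the 3 p300-KO libraries were above all WT libraries for Kat6b.

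The paralog of each floxed gene stood somewhat higher, without passing the test across all genes. Ep300 had 22789, 25741 and 23271 normalized read counts in CBP-KO_1, CBP-KO_53 and CBP-KO_55, all above the highest WT library at 22498. Its log2 fold change in CBP-KO was 0.17, with a 95% confidence interval from 0.04 to 0.30 (limma adjusted p = 0.111; exact two-sided permutation p = 0.0357). Crebbp had 10073, 10952 and 10218 in p300-KO_18, p300-KO_287 and p300-KO_289, all above the highest WT library at 9584. Its log2 fold change in p300-KO was 0.24, with an interval from 0.08 to 0.39 (limma adjusted p = 0.0551; exact two-sided permutation p = 0.0357). DESeq2 on the recovered reads put Crebbp past the threshold in p300-KO (adjusted p = 0.0261), and edgeR did not (adjusted p = 0.0529). Without p300-KO_18 the log2 fold change of Crebbp was 0.26 (limma adjusted p = 0.0951).

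Between the knockouts both genes passed the test. Crebbp was lower in CBP-KO than in p300-KO by a log2 of -0.34 ± 0.08 (SE) (limma adjusted p = 0.0224), and Ep300 was higher in CBP-KO than in p300-KO by 0.73 ± 0.07 (adjusted p = 7.07e-05). The Crebbp call was lost without CBP-KO_55 (log2 -0.28, adjusted p = 0.0968) or p300-KO_287 (log2 -0.30, adjusted p = 0.0794). For Ep300, leaving out any 1 of the 11 libraries gave log2 values from 0.67 to 0.76, with adjusted p at most 0.00054.

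The ratio of the paralogs within a library does not depend on how libraries are scaled. Reads of Ep300 outnumbered those of Crebbp by 2.65, 2.99 and 3.09 in CBP-KO_1, CBP-KO_53 and CBP-KO_55, by 1.47, 1.35 and 1.35 in p300-KO_18, p300-KO_287 and p300-KO_289, and by between 2.27 and 2.61 in WT with a median of 2.37. These ranges do not overlap, with CBP-KO highest and p300-KO lowest. In each knockout the floxed gene is part of this ratio, so a shift of the ratio does not by itself show a change of the paralog. Against WT, Ep300 had a log2 fold change of -0.55 and Crebbp of 0.24 in p300-KO. In CBP-KO these were 0.17 and -0.10. On the log2 scale the ratio was 1.54 ± 0.12 in CBP-KO, 0.47 ± 0.07 in p300-KO and 1.26 ± 0.08 in WT (SD, n = 3, 3 and 5). The difference in log2 ratio was 0.27 for CBP-KO minus WT and -0.79 for p300-KO minus WT (exact permutation p = 0.0179 for either, the smallest possible, and 0.0536 after Benjamini-Hochberg adjustment over 9 ratio comparisons). For CBP-KO minus p300-KO it was 1.06, where 3 against 3 libraries cannot give less than the exact p = 0.1 found. Read counts per kb of exon summed over Crebbp and Ep300 were 2286 ± 134 in CBP-KO, 1783 ± 62.9 in p300-KO and 2145 ± 136 in WT (SD), and the highest p300-KO library (1846) was below the lowest WT library (1956). This sum, added after seeing the values and not tested, counts any transcript left from the floxed gene.

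**Figure D2:**
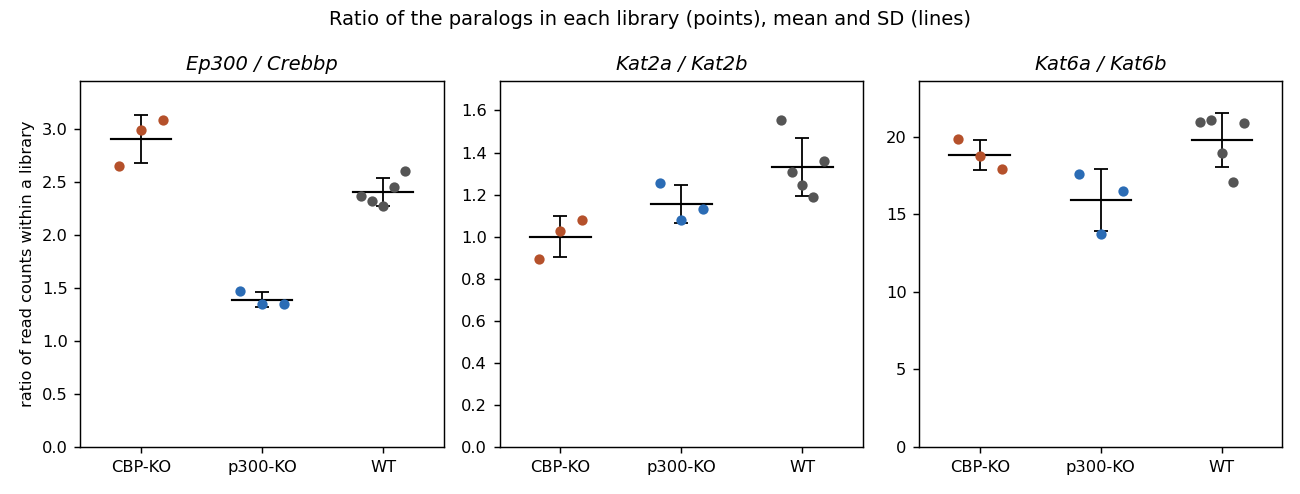
Ratio of read counts (y axis, from 0) of Ep300 to Crebbp, Kat2a to Kat2b and Kat6a to Kat6b in the CBP-KO, p300-KO and WT libraries; each point is a library, the horizontal line the mean and the bar the SD. The Ep300 to Crebbp ratio was at most 1.47 in p300-KO and at least 2.27 in WT, and the Kat2a to Kat2b ratio was at most 1.08 in CBP-KO and at least 1.19 in WT.

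Kat6b was the other member past the test in p300-KO against WT. KAT6B (MORF) and KAT6A (MOZ) are the catalytic subunits of complexes built on BRPF scaffolds that acetylate histone H3. Kat6b had 1285, 1727 and 1448 normalized read counts in p300-KO_18, p300-KO_287 and p300-KO_289, against 1040, 1056, 1120, 1135 and 1050 in WT_4, WT_7, WT_41, WT_46 and WT_288. The 3 p300-KO libraries were above all WT libraries and spread more widely, with a SD of 223 against 43.8. Kat6b rose by a log2 of 0.45 ± 0.09 (SE) in p300-KO (limma adjusted p = 0.00609), with a 95% confidence interval from 0.26 to 0.64. The rise was 0.55 without p300-KO_18 (adjusted p = 0.00442) and 0.34 without p300-KO_287, with adjusted p at most 0.026 over the 11 libraries left out in turn. In CBP-KO its values of 1184, 1267 and 1185 were also above every WT library, with a log2 fold change of 0.17 (interval -0.03 to 0.36, limma adjusted p = 0.298). The CBP-KO and p300-KO libraries did not overlap for Kat6b, and the log2 difference of -0.28 for CBP-KO against p300-KO had adjusted p = 0.0921 by limma, 0.0861 by edgeR and 0.0457 by DESeq2. Without p300-KO_18 it was -0.38 (limma adjusted p = 0.0418), and without p300-KO_287 it was -0.17 (limma adjusted p = 0.293).

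Kat6a stood at far higher read counts and moved less. It had 23492, 23769 and 21217 normalized read counts in CBP-KO_1, CBP-KO_53 and CBP-KO_55, 22589, 23670 and 23889 in p300-KO_18, p300-KO_287 and p300-KO_289, and between 19418 and 22239 in WT with a median of 21822. All p300-KO libraries were above the WT libraries, with a log2 fold change of 0.13 (interval 0.01 to 0.26, limma adjusted p = 0.156), while CBP-KO overlapped WT (log2 0.10, adjusted p = 0.346). The ratio of Kat6a to Kat6b reads was 18.8 ± 0.97 in CBP-KO, 15.9 ± 2.0 in p300-KO and 19.8 ± 1.74 in WT (SD). Its log2 difference was -0.32 for p300-KO minus WT, where the libraries overlapped (exact permutation p = 0.0536, 0.121 after adjustment), and -0.07 for CBP-KO minus WT (exact p = 0.375).

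KAT2A (GCN5) and KAT2B (PCAF) are alternative acetyltransferase subunits of the SAGA and ATAC coactivator complexes. Kat2b had 4302, 4481 and 4271 normalized read counts in CBP-KO_1, CBP-KO_53 and CBP-KO_55, against 3557, 3866, 3810, 3972 and 3335 in WT_4, WT_7, WT_41, WT_46 and WT_288. Every CBP-KO library was above every WT library, and the log2 fold change of 0.23 (interval 0.09 to 0.38) just missed the threshold (limma adjusted p = 0.0541). It passed without WT_46 (log2 0.26, adjusted p = 0.0344) and by DESeq2 (adjusted p = 0.0212), and did not by edgeR (adjusted p = 0.0575). In p300-KO, Kat2b overlapped WT at 3858, 3736 and 4300 (log2 0.10, limma adjusted p = 0.414).

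Kat2a overlapped between CBP-KO, p300-KO and WT. It had 3845, 4601 and 4614 in CBP-KO_1, CBP-KO_53 and CBP-KO_55, 4840, 4034 and 4860 in p300-KO_18, p300-KO_287 and p300-KO_289, and between 4542 and 5525 in WT with a median of 4738. The log2 fold changes were -0.18 in CBP-KO (interval -0.37 to 0.01, limma adjusted p = 0.255) and -0.10 in p300-KO (interval -0.29 to 0.08, adjusted p = 0.505). With 1 library left out they ranged from -0.22 to -0.09 in CBP-KO, nearest to 0 without CBP-KO_1, and from -0.15 to -0.02 in p300-KO, nearest to 0 without p300-KO_287. The ratio of Kat2a to Kat2b reads lay between 0.894 and 1.08 in CBP-KO, 1.08 and 1.25 in p300-KO, and 1.19 and 1.55 in WT. The CBP-KO and WT ratios did not overlap, with a log2 difference of -0.41 (exact permutation p = 0.0179, the smallest possible, and 0.0536 after adjustment over the 9 comparisons). For p300-KO minus WT the log2 difference was -0.20 with overlap (exact permutation p = 0.107).

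The remaining MYST members stood close to WT in both knockouts. KAT5 (TIP60) is the acetyltransferase of the TIP60 complex and acts in transcription and DNA repair. Kat5 had between 3971 and 4276 normalized read counts in CBP-KO, 4184 and 4382 in p300-KO, and 4304 and 4636 in WT. In CBP-KO the libraries lay just below those of WT, with a log2 fold change of -0.13 (interval -0.23 to -0.02, limma adjusted p = 0.147), and in p300-KO it was -0.07 (adjusted p = 0.39). KAT7 (HBO1), which acetylates histones H3 and H4 with BRPF or JADE scaffolds, and KAT8 (MOF), the main acetyltransferase of histone H4 lysines in the MSL and NSL complexes, overlapped WT in both. Kat7 averaged 10389 ± 140 in CBP-KO, 10371 ± 471 in p300-KO and 11001 ± 611 in WT (SD), with log2 fold changes of -0.08 in both (intervals -0.20 to 0.04 and -0.20 to 0.03). Kat8 averaged 2023 ± 73.8 in CBP-KO, 2029 ± 126 in p300-KO and 2126 ± 81.3 in WT (SD), with log2 fold changes of -0.07 in both (intervals -0.20 to 0.06 in both).

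NCOA3 (SRC-3) is a nuclear receptor coactivator that binds CREBBP and EP300 and has been reported to acetylate histones itself. Ncoa3 had 24397, 24590 and 22480 normalized read counts in CBP-KO_1, CBP-KO_53 and CBP-KO_55, 25947, 28358 and 26491 in p300-KO_18, p300-KO_287 and p300-KO_289, and between 24546 and 26473 in WT. Against WT the groups overlapped, with log2 fold changes of -0.09 in CBP-KO (interval -0.20 to 0.02) and 0.09 in p300-KO (interval -0.02 to 0.20). Every CBP-KO library was below every p300-KO library, with a log2 difference of -0.18 for CBP-KO against p300-KO (interval -0.30 to -0.05, limma adjusted p = 0.0696, against 0.0687 by edgeR and 0.0303 by DESeq2). Leaving out 1 library gave -0.20 to -0.14, with limma adjusted p from 0.0669 to 0.241.

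**Figure D3:**
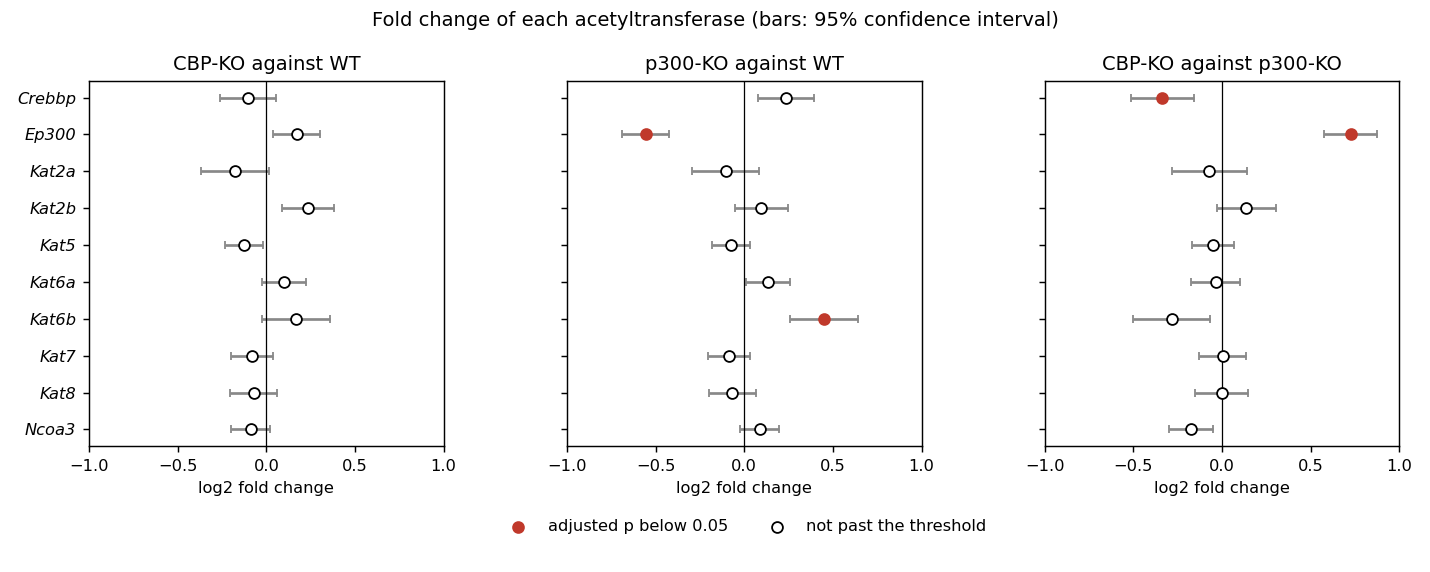
Log2 fold change (x axis) of each acetyltransferase in CBP-KO against WT, p300-KO against WT and CBP-KO against p300-KO; bars are 95% confidence intervals and filled points passed a limma adjusted p below 0.05. Filled points are Ep300 (-0.55) and Kat6b (0.45) in p300-KO against WT, and Crebbp (-0.34) and Ep300 (0.73) between the knockouts.

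Counted over the 10 members, 0 passed limma in CBP-KO against WT, where 8.36% of 16515 tested genes did (3.48% higher and 4.88% lower). At an unadjusted p below 0.05 there were 3 members, beside 22.6% of all tested genes. Of the members edgeR called 0 and DESeq2 called 1, Kat2b, where edgeR called 8.01% and DESeq2 12.4% of all tested genes. In p300-KO against WT 2 passed, Kat6b higher and Ep300, the floxed gene, lower, where 11.9% of tested genes did (5.84% higher and 6.09% lower). In CBP-KO against p300-KO 2 passed, Ep300 higher and Crebbp lower, where 9.42% of tested genes did (4.79% higher and 4.63% lower). Both of these are genes that the knockouts targeted, and no other member passed between the knockouts. Counts that include Ep300 or Crebbp are thus no result about the other members. Groups did not overlap for 4 members in each comparison, against 16.9%, 19% and 31% of tested genes in CBP-KO against WT, p300-KO against WT and CBP-KO against p300-KO. In CBP-KO against WT these were Ep300, Kat2b and Kat6b above WT (8.43% of tested genes) and Kat5 below it (8.47%). In p300-KO against WT they were Crebbp, Kat6a and Kat6b above WT (9.63%) and Ep300 below it (9.4%). In CBP-KO against p300-KO they were Ep300 above (15.5%) and Crebbp, Kat6b and Ncoa3 below (15.6%). The median log2 fold change of the members was -0.08 in CBP-KO and 0.01 in p300-KO against WT, beside 0.0065 and -0.0052 over all tested genes. Their median size of change without regard to sign was 0.11 and 0.10, beside 0.141 and 0.155 over all tested genes. Both comparisons use the same WT libraries. Among members that did not pass, the confidence interval reached no farther than 0.38 in CBP-KO and 0.39 in p300-KO on the log2 scale.

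Levels of different genes were compared as normalized read counts per kb of exon. In WT the order was Ncoa3 (3208 ± 111), Kat6a (2323 ± 123), Kat7 (1987 ± 110), Ep300 (1490 ± 89.4), Kat2a (1413 ± 111), Kat5 (1285 ± 40.01), Kat2b (762 ± 53.1), Kat8 (735 ± 28.1), Crebbp (655 ± 54.8) and Kat6b (64.2 ± 2.61), as mean ± SD over 5 libraries. Neighbours overlapped between Ep300 and Kat2a, Kat2a and Kat5, and Kat2b and Kat8, and the other neighbours did not. In CBP-KO Ep300 stood at 1677 ± 111 per kb and kept its place in the order. In p300-KO it stood at 1014 ± 42.1 per kb, below Kat2a (1316 ± 135) and Kat5 (1221 ± 28.2), and remained above Crebbp (769 ± 34.8), whose libraries overlapped those of Kat8 (702 ± 43.7). Kat6b was lowest in every group, at 72.0 ± 2.84 in CBP-KO, 88.4 ± 13.3 in p300-KO and 64.2 ± 2.61 in WT. The order depends on the length used: per kb of the transcript with most coding bases Kat6b stood at 140 in WT and Ep300 at 2223, and Kat5 (2094) came before Kat2a (1614). On that scale in p300-KO, Ep300 (1512) stood beside Kat2a (1503) and below Kat5 (1990), and Crebbp (963) was below Kat8 (1285).

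**Figure D4:**
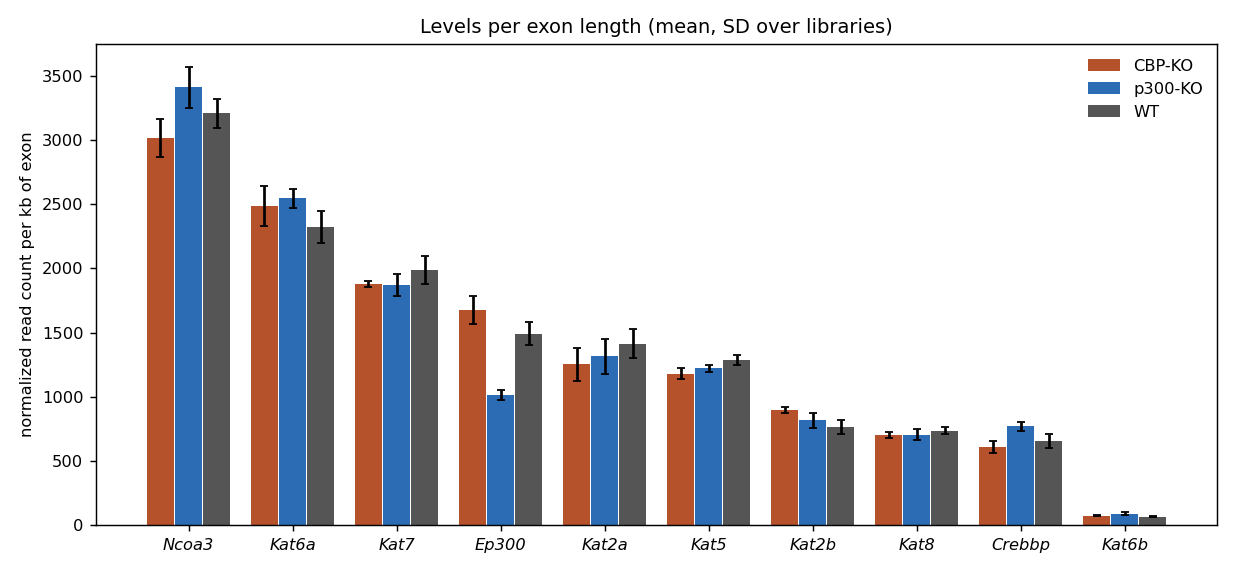
Normalized read counts per kb of exon (y axis, from 0) of the 10 acetyltransferases, ordered by their WT level; bars are means over 3 CBP-KO, 3 p300-KO and 5 WT libraries and error bars the SD. Ep300 is at 1014 in p300-KO and 1490 in WT, and Kat6b is below 103 in every library.

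Genes whose profile over the 11 libraries was most like that of Crebbp and of Ep300 were found by the root mean square difference of centred log2 values among 12470 named genes. For Crebbp these were Sfi1 (0.0534), Man2b1 (0.0539) and Ubr4 (0.054), where the profile of Crebbp itself varied by 0.158. Sfi1 averaged 5625 ± 508 in CBP-KO, 6971 ± 607 in p300-KO and 6000 ± 514 in WT (SD). For Ep300 they were Hmces (0.0844), Fam117a (0.0947) and Mtm1 (0.103), where Ep300 itself varied by 0.293. Fam117a averaged 5538 ± 169 in CBP-KO, 3769 ± 147 in p300-KO and 5447 ± 182 in WT (SD).

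Partners and further acetyltransferases outside the 10 members were read from 6 lists holding 84 genes, of which 83 were tested and Cited4 was too low. In CBP-KO against WT 3 of 83 rose and 2 fell (6.02%, against 8.36% of all tested genes). Cited1 is among those that rose, and it entered the test only through its CBP-KO libraries. In p300-KO against WT 2 rose and 5 fell (8.43%, against 11.9%). In CBP-KO against p300-KO 5 were higher and 2 lower (8.43%, against 9.42%).

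CITED proteins bind CREBBP and EP300 and compete with other factors for them. Cited1 had 33.8, 41.3 and 26.2 normalized read counts in CBP-KO_1, CBP-KO_53 and CBP-KO_55, between 3.2 and 15.4 in p300-KO, and between 0 and 10.5 in WT. Cited1 passed the filter on low values only through its CBP-KO libraries, so that its inclusion depended on the difference tested, and it was below a mean of 50. At these low counts it rose in CBP-KO by a log2 of 3.25 (limma adjusted p = 0.0144, or 0.0198 with no filter), or 1.87 with a pseudocount of 8, and leaving out CBP-KO_53 ended the call (adjusted p = 0.0727). Cited2 had 3621, 3926 and 3818 in p300-KO_18, p300-KO_287 and p300-KO_289, against 5131, 5271, 4516, 5007 and 4931 in WT_4, WT_7, WT_41, WT_46 and WT_288. Its p300-KO libraries were all below those of WT, and its log2 fold change was -0.39 (limma adjusted p = 0.00109). The coactivator Ncoa6 rose in p300-KO (8017 ± 327 against 6728 ± 490 in WT, SD, log2 0.26, limma adjusted p = 0.0207), a call lost without p300-KO_287 or p300-KO_289 (adjusted p = 0.07 and 0.0882). Of 10 tested genes in this list 1 rose in CBP-KO (10%, against 8.36% of all tested genes). That gene is Cited1, so this share rests on a gene whose inclusion depended on the difference tested. In p300-KO 1 rose and 1 fell (20%, against 11.9%).

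In the list of 23 SAGA and ATAC partners of KAT2A and KAT2B, 1 fell in each knockout, the same gene. This is 4.35% of the list, against 8.36% of all tested genes in CBP-KO and 11.9% in p300-KO. Sgf29, a subunit that reads methylated histone H3, had 1470, 1477 and 1528 normalized read counts in CBP-KO_1, CBP-KO_53 and CBP-KO_55, 1672, 1331 and 1526 in p300-KO_18, p300-KO_287 and p300-KO_289, and 2041, 1964, 2048, 1946 and 1902 in WT_4, WT_7, WT_41, WT_46 and WT_288. All 6 knockout libraries were below the 5 WT libraries. The log2 fold changes were -0.41 in CBP-KO (limma adjusted p = 0.00492) and -0.40 in p300-KO (adjusted p = 0.00435), against the same WT libraries, and passed under each of the 24 alternatives tried.

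Among scaffolds of KAT6A, KAT6B and KAT7, Brpf3 rose in both knockouts and Jade2 fell in CBP-KO. Brpf3, a scaffold of KAT7, averaged 8003 ± 91.3 in CBP-KO, 8289 ± 481 in p300-KO and 6739 ± 491 in WT (SD, n = 3, 3 and 5). Its log2 fold change was 0.25 in CBP-KO (limma adjusted p = 0.0306) and 0.30 in p300-KO (adjusted p = 0.00983). Leaving out CBP-KO_1, CBP-KO_53, CBP-KO_55 or WT_288 ended the CBP-KO call (limma adjusted p at most 0.104). Jade2, another scaffold of KAT7, averaged 5157 ± 719 in CBP-KO, 6713 ± 854 in p300-KO and 6644 ± 238 in WT (SD), with log2 -0.37 in CBP-KO (adjusted p = 0.0223). This call ended when CBP-KO_53 or CBP-KO_55 was left out (limma adjusted p = 0.12 and 0.117). Of 9 genes in the list 7 did not pass in CBP-KO and 8 did not in p300-KO. Those that passed were 22.2% and 11.1% of the list, against 8.36% and 11.9% of all tested genes.

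Of 17 TIP60 partners Brd8, a bromodomain subunit, fell in p300-KO (log2 -0.17, limma adjusted p = 0.0445), and of 11 MSL and NSL partners Phf20, a reader of the NSL complex, did so (log2 -0.20, adjusted p = 0.0379). These are 5.88% and 9.09% of the lists, against 11.9% of all tested genes. Of 24 alternatives 15 ended the Brd8 call and 12 the Phf20 call (adjusted p up to 0.168 and 0.143). Leaving out p300-KO_18 ended both (limma adjusted p = 0.112 for Brd8 and 0.143 for Phf20), as did leaving out p300-KO_289 (0.125 and 0.111). Leaving out WT_46 ended the Brd8 call (limma adjusted p = 0.061). In CBP-KO limma, edgeR and DESeq2 called 0 genes of either list, and 2 of 17 and 2 of 11 had an unadjusted limma p below 0.05, beside 22.6% of all tested genes. Of 16 further acetyltransferases and coactivators Clock, a circadian transcription factor with reported acetyltransferase activity, rose in CBP-KO. It averaged 4478 ± 26.7 in CBP-KO, 4171 ± 267 in p300-KO and 3594 ± 294 in WT (SD), with log2 0.32 in CBP-KO (limma adjusted p = 0.0141). Clock did not pass when CBP-KO_53 or CBP-KO_55 was left out (limma adjusted p = 0.0636 and 0.0565). Esco2, which acetylates the cohesin ring during DNA replication, averaged 11756 ± 65.6 in CBP-KO, 8605 ± 691 in p300-KO and 11167 ± 1163 in WT (SD). Esco2 fell in p300-KO (log2 -0.37, limma adjusted p = 0.00976), a call lost without p300-KO_18 (adjusted p = 0.0545).

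**Figure D5:**
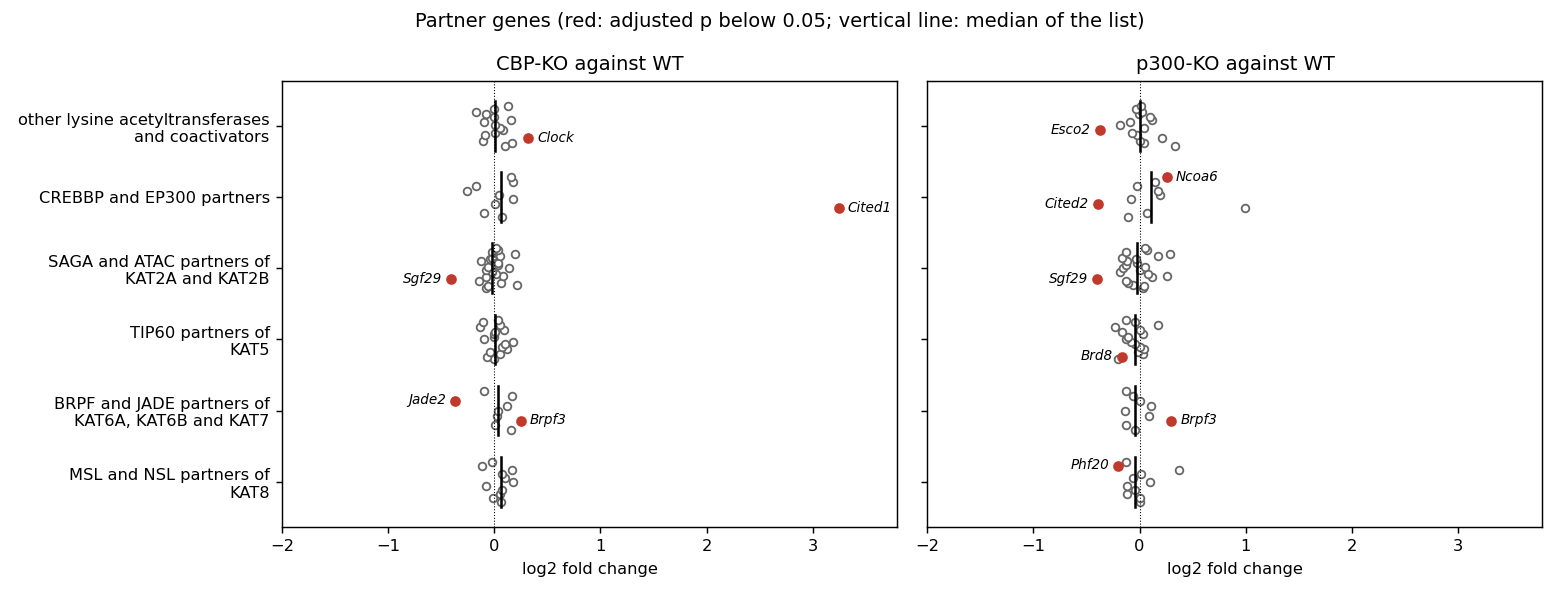
Log2 fold change (x axis) of each tested gene in 6 lists of partners and further acetyltransferases, in CBP-KO against WT and p300-KO against WT; each point is a gene, filled where the limma adjusted p was below 0.05, and the vertical line is the median of the list. Named points include Cited1 (3.25) and Sgf29 (-0.41) in CBP-KO and Cited2 (-0.39) and Sgf29 (-0.40) in p300-KO, while most genes lie near 0. Cited1 has low counts and passed the filter on low values only through its CBP-KO libraries.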

How the data were processed

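RNA of 11 libraries (3 CBP-KO, 3 p300-KO and 5 WT, grouped by the sample labels) was made into libraries with a TruSeq RNA v2 kit per the labels' protocols. The submitters' processing notes name CASAVA 1.8, HISAT2, featureCounts, DESeq2 and mm10, without settings. The deposited values (a signal in whole reads over a size factor) had been scaled by the authors with DESeq2, per the labels and notes: 100% of values were whole multiples of 1 step per library within a tolerance of 1e-06, and size factors recomputed from these reads equalled the recovered ones. Depth is the sum of recovered reads. The labels give a mouse genotype for each library but no animal or preparation record, so p-values measure the spread between libraries, which may be technical.

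Of 48593 genes 16515, those averaging 10 or more, entered limma 3.58.1 on log2(value + 1), fitted once over all libraries with a variance trend, two-sided, with Benjamini-Hochberg adjustment over all tested genes and a threshold of 0.05. Unless another tool is named, adjusted p values are from limma. Fold changes on this scale understate those of low genes. Paralog ratios, and Crebbp and Ep300 in each knockout against WT, had exact two-sided permutation tests. edgeR 4.0.16 and DESeq2 1.42.0 ran on the recovered reads. The procedure was tested on simulated counts whose set fold changes all exceeded those of any member against WT. That test does not bear on changes as small as those of the members. Gene models and coding sequences came from GENCODE M21 on GRCm38, the build also called mm10. Members, lists and tests were chosen with earlier results of these data known. Named partners were up to 4 per list with the smallest p among those past the threshold. R 4.3.3, Python 3.11.15 with pandas 2.3.3, Biopython 1.88 and matplotlib 3.10.9 were used.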

Additional observations from a re-analysis of the deposited data

Results flagged for a closer look

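Of the 10 members, 2 differed between the knockouts by a test of the difference itself. The effect in CBP-KO minus that in p300-KO was 0.73 on the log2 scale for Ep300 and -0.34 for Crebbp (limma, both past the threshold as given above). Ep300 is the gene floxed in p300-KO and Crebbp that floxed in CBP-KO. Against WT, Ep300 stood at 0.17 in CBP-KO and -0.55 in p300-KO. Crebbp stood at -0.10 in CBP-KO, where the libraries overlapped those of WT (limma adjusted p = 0.459), and at 0.24 in p300-KO (limma adjusted p = 0.0551). The part of deletion in the Crebbp difference was not tested. A search of the 5 WT libraries for 1 library far from the others, over the 10 members and 3 paralog ratios, found 0 in 13 such groups, where chance gives about 1 in 20.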

How the results depend on the processing

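Of 24 alternatives, 11 left out a library each. Ep300 in p300-KO against WT passed under all 24 (log2 -0.59 to -0.50), as did Kat6b (0.34 to 0.57), both in the same direction. Crebbp in p300-KO passed under a mean of at least 50 (0.24, adjusted p = 0.0486), quantile normalization (0.27, 0.0313) and DESeq2 (0.23, 0.0261), and ranged from 0.20 to 0.26 with a library left out, passing without CBP-KO_55 or WT_7. Ep300 in CBP-KO passed under 1 of the 24, library weights (0.21, adjusted p = 0.0182). With a library left out it ranged from 0.12 to 0.20 (limma adjusted p from 0.0797 to 0.42).

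Members called in CBP-KO were 0, and 0 to 1 with a library left out. Kat2b alone was called with a mean of at least 50, quantile normalization, DESeq2, a sex covariate, or WT_46 and p300-KO_18 both left out. DESeq2 called 12.4% of all tested genes there. The sex covariate had 2 levels read from Xist and Y-linked values, and p300-KO_18, which held both, shared the level of libraries high in Xist. Library weights called 3 members (Ep300, Kat2b and Kat5), where 2730 of 16515 tested genes were called. In p300-KO 2 were called, 4 with quantile normalization (Crebbp and Kat6a besides) and 2 to 3 with a library left out. All genes called in p300-KO ranged from 1169 to 2700 over the 24 alternatives. Between the knockouts 2 were called, 1 without a variance trend, 4 by DESeq2 (where 14.2% of all tested genes were) and 1 to 3 with a library left out.

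Genes called were 1380 in CBP-KO (2730 with library weights; 647 to 1544 with a library left out, lowest without CBP-KO_55, 658 without CBP-KO_53), 1970 in p300-KO (1169 to 2035, lowest without p300-KO_289, 1260 without p300-KO_18 and 1248 without p300-KO_287) and 1556 between the knockouts (2808 with library weights, 2338 by DESeq2; 747 to 1958, lowest without CBP-KO_55, 863 without CBP-KO_53, 849 without p300-KO_18 and 906 without p300-KO_287). Partner genes called ranged from 1 (without CBP-KO_53) to 6 in CBP-KO and from 4 (without p300-KO_18 or p300-KO_289) to 9 in p300-KO. Between the knockouts Kat7 turned sign under quantile normalization (-0.024) and without WT_46 and p300-KO_18 (-0.0031), Kat8 without those 2 libraries (0.0419), and with a library left out Kat7 (-0.0255 to 0.0386), Kat8 (-0.0478 to 0.0419), Kat2a (-0.16 to 0.0146) and Kat6a (-0.0663 to 0.0156), none of them called. The cause was not tested. The 9 ratio differences kept their direction and none passed in any of 12 alternatives, where fewer libraries raise the smallest p possible. No paired analysis was possible because no replicate number occurs in more than 1 group.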
